A study of Mus musculus with 2 samples.

Results

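The genes of oxidative phosphorylation were followed in sorted Foxp3-reporter T cells of adult mouse back skin and lung. Members were the genes of the lung gene list whose symbols start with Nduf, Uqcr, Cox4 to Cox8, Atp5 or Sdh, or with mt-Nd, mt-Co, mt-Atp or mt-Cytb, provided that their Ensembl ID also stood in the skin gene list. This gave 109 of the 27514 genes in both lists, 96 encoded in the nucleus and 13 in mitochondrial DNA. Of 110 symbols with these starts, 1 had no skin ID, a second Atp5o entry with 0 UMIs in lung. The genes were read in barcodes with at least 1 UMI over Cd3d, Cd3e and Cd3g, called CD3 cells here, which were 6510 of 6601 barcodes in skin and 8399 of 8730 in lung.

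Oxidative phosphorylation makes ATP in the inner mitochondrial membrane. Complexes I (NADH dehydrogenase) and II (succinate dehydrogenase) pass electrons by ubiquinone to complex III, and cytochrome c carries them to complex IV (cytochrome c oxidase), while the proton gradient drives complex V (ATP synthase). Mitochondrial DNA encodes a few hydrophobic subunits of complexes I, III, IV and V, and the nucleus encodes the other subunits, all of complex II and the assembly factors. Regulatory T cells are known to rely on this pathway more than other activated CD4+ T cells do.

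Skin cells came from Foxp3-CreERT2GFP mice and lung cells from Foxp3-GFP mice of a strain the labels call Tachilla, both on the C57Bl/6 background, with 1 library per tissue. In these mice the Foxp3 locus, which drives the defining transcription factor of regulatory T cells (Tregs), reports through GFP, so a gate on GFP marks cells by Foxp3 activity. Both tissues were digested with collagenase and sorted on GFP, CD4, CD3 and CD45. Single cells were sequenced with 10x 3' v2 chemistry, which counts RNA molecules by unique molecular identifiers (UMIs) near their 3' ends. Tissue, reporter allele, library and gene annotation differ together between the libraries and cannot be told apart. The labels do not give age beyond adult, sex or the number of mice pooled.

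CD3 cells held 15992105 UMIs of shared genes in skin and 23479421 in lung, with medians of 2064.5 and 2364 UMIs per cell, and 82 barcodes occurred in both libraries. T cell markers summed to 3897 CPM (counts scaled to one common library total) in skin and 3071 in lung, with all 5 that both gene lists hold above 0. These markers include Cd3d, Cd3e and Cd3g, on which the cells were chosen, so their presence follows from that choice. The 6 Treg markers summed to 5439 and 1779 CPM. Markers of other cell types were present in the same CD3 cells. Fibroblast markers summed to 1598 CPM in skin and 38.7 in lung, and lung epithelium markers to 0 in skin (4 of 4 at 0) and 3623 CPM in lung. Myeloid markers summed to 122 and 403 CPM. The share of UMIs in cytosolic ribosomal protein genes was 18.7% in skin and 38.0% in lung, and that of a list of 20 early response genes 2.31% in skin and 0.754% in lung. With 1 library a group no test was possible. Intervals are exact 95% ranges and cover counting error only.

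Genes that reached 20 CPM in at least 1 of the libraries, 5698 in all, are called compared genes. Their median log2 ratio of skin over lung, with 5 CPM added on each side, was 0.36, and 4244 had a ratio above 0. Under scalings that set aside the ribosomal difference this median moved to 0.03 with median-of-ratios size factors, and to 0.01 on reduced totals, which leave out mitochondrial and ribosomal protein genes. A plain ratio near this shift is therefore that of the middle gene. Folds printed for single genes are plain ratios of CPM, while counts of genes past a fold use the log2 ratio with 5 CPM added.

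Nuclear oxidative phosphorylation genes were close to even between the tissues on CPM. Of 96 members, 82 were compared, and their median log2 ratio was 0.21, a difference of -0.15 from the median of all compared genes. None was at least 2-fold higher in skin, where 15.0% of all compared genes were, and 1 was at least 2-fold higher in lung, where 5.04% of all were. At 1.5-fold, 6 were higher in skin (33.8% of all compared genes) and 3 in lung (9.02% of all), and 73 lay within 1.5-fold. Together they took 2.16% of UMIs in skin and 2.04% in lung, a ratio of 1.06 (1.05 to 1.06). On the reduced totals the order turned, with 2.76% in skin and 3.43% in lung. The median of the same 82 genes became -0.17 on that scale. In CD3 cells with fewer than 2 UMIs over the markers of other cell types the members' median on CPM was 0.27. The other 14 nuclear members were below 20 CPM in both libraries, among them 7 tissue isoforms of complex IV, and 1, Cox8c, was never counted.

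**Figure D1:**
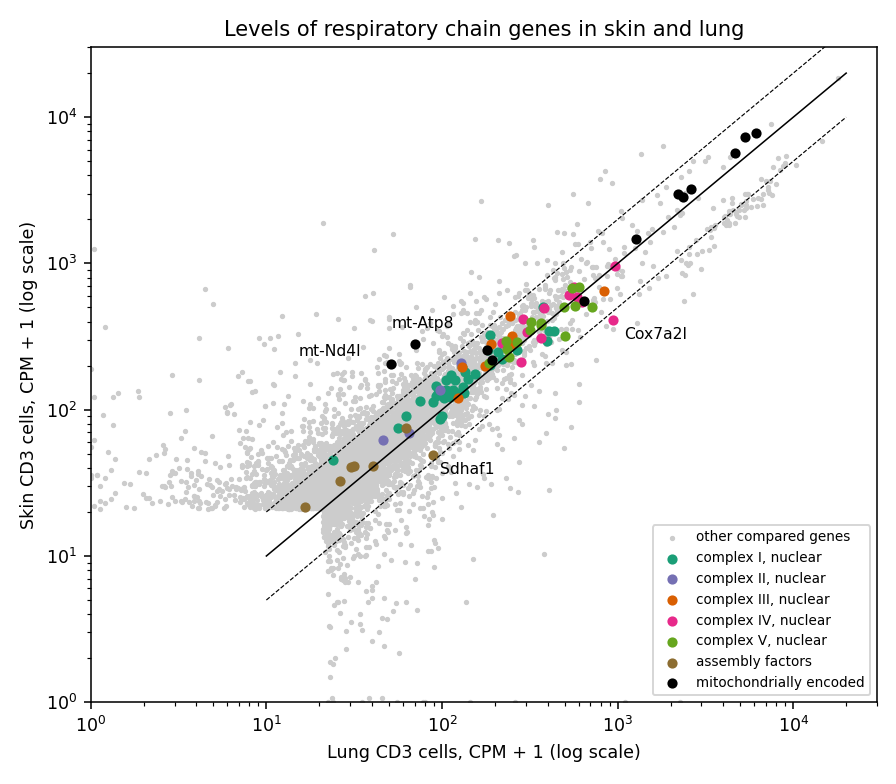
Levels in CD3 cells of skin (vertical axis) and lung (horizontal axis) as CPM + 1 on log scales, for the compared genes of the 5 complexes, the assembly factors and mitochondrial DNA over all other compared genes in grey. The solid line marks equal levels and the dashed lines 2-fold differences; Cox7a2l lies beyond the line on the lung side, and mt-Atp8 and mt-Nd4l beyond the line on the skin side.

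Complex I takes electrons from NADH. Its 36 nuclear members were all compared and had a median log2 ratio of 0.27. Of these, 29 were above 0, as were 4244 of the 5698 compared genes, and 16 lay above the median of all compared genes. At 1.5-fold, 4 stood on the skin side (33.8% of all compared genes) and 0 on the lung side (9.02% of all). The 7 core subunits, which carry the flavin and the iron-sulfur clusters, had a median of 0.25, and the 29 accessory subunits 0.30. Ndufs1, the largest core subunit, had 44.3 CPM in skin (41.1 to 47.7) and 22.8 CPM in lung (20.9 to 24.8), 1.94-fold apart (1.73 to 2.18). The accessory subunit Ndufb7 had 324 CPM in skin and 186 CPM in lung. Both kept the higher value in skin under both scalings. At the other end stood the accessory subunits Ndufa6, with 295 CPM in skin and 393 CPM in lung, and Ndufa3, with 343 CPM in skin and 435 CPM in lung. As a sum, complex I took 0.637% of UMIs in skin and 0.555% in lung. Its median turned to -0.09 with median-of-ratios factors and -0.11 on the reduced totals.

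Complex II, which is also the succinate dehydrogenase of the tricarboxylic acid cycle, has 4 subunits, and all 4 had a ratio above 0. Of the 4, 3 lay above the median of all compared genes. Sdhb, the iron-sulfur subunit, had 207 CPM in skin and 128 CPM in lung, and the flavoprotein Sdha had 135 CPM in skin and 96.7 CPM in lung. The membrane anchor Sdhc had 60.97 CPM in skin and 44.8 CPM in lung. The other anchor, Sdhd, was nearly level at 67.9 CPM in skin and 63.5 CPM in lung, and its sign turned under both scalings. Summed over the subunits, complex II was 1.42-fold higher in skin (1.37 to 1.46), with a median log2 ratio of 0.43, against 0.36 for all compared genes. Its median stayed above 0 under both scalings, at 0.08 and 0.07, the only complex of the 5 of which that held.

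Complex III passes electrons from ubiquinol to cytochrome c, and its 8 nuclear members under the symbol rule had a median of 0.26. Its cytochrome c1 gene, Cyc1, lies outside the rule and was read with the electron carriers. Uqcrb, a small subunit near the ubiquinone site, had 433 CPM in skin (423 to 444) and 243 CPM in lung (237 to 250), 1.78-fold apart. The core protein Uqcrc1 had 196 CPM in skin and 130 CPM in lung, while its partner Uqcrc2 was near equal on CPM, with 120 CPM in skin and 122 CPM in lung. Uqcrh, the hinge protein at the cytochrome c1 interface, ran the other way, with 650 CPM in skin and 833 CPM in lung. The Rieske iron-sulfur protein Uqcrfs1 had 198 and 175 CPM. The 8 genes thus ranged from -0.36 to 0.82 on the log2 scale.

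Complex IV reduces oxygen, and it held the widest nuclear difference. Of its 20 nuclear members 12 were compared, with a median log2 ratio of 0.08, and 7 of the 12 were above 0. Of the 12, 3 lay above the median of all compared genes. Cox7a2l (ENSMUSG00000024248, chr17:83501918-83517330, GRCm38, minus strand) is a relative of Cox7a2, classed as a supercomplex factor of complexes III and IV. Its function in these mice was not tested. Cox7a2l had 410 CPM in skin (401 to 420) and 937 CPM in lung (925 to 950). It was 2.28-fold higher in lung (2.22 to 2.35), and its log2 ratio was -1.18. It was at least 2-fold higher in lung under all 11 alternatives run for single genes, from -1.57 to -1.17. Barcodes without a CD3 UMI showed the same order, 288 CPM in skin and 595 CPM in lung. Cox7a2 itself had 339 CPM in skin and 302 CPM in lung, so the 2 relatives ran opposite ways on this scale; under both scalings Cox7a2 also turned to the lung side, at -0.21 and -0.22.

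Other ubiquitous subunits of complex IV stood on both sides, all within 1.5-fold on CPM. Cox4i1, the regulatory subunit, had 954 CPM in skin and 968 CPM in lung, and Cox8a 586 CPM in skin and 585 CPM in lung. Cox6b1, which faces cytochrome c, had 603 CPM in skin and 527 CPM in lung. Ndufa4, named for complex I but now counted as a subunit of complex IV, had 418 CPM in skin and 287 CPM in lung, and Cox6a1 had 499 CPM in skin and 378 CPM in lung. Cox7b was lower in skin, with 210 CPM against 282 CPM in lung. Under both scalings Cox7b was at -0.79 and -0.81 and Cox4i1 at -0.40 and -0.41.

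Tissue isoforms of complex IV were scarce in these cells. Cox4i2, the isoform of lung and of low oxygen, had 2.25 CPM in skin and 0.681 CPM in lung. Cox7a1, of heart and muscle, had 3.19 CPM in skin and 1.32 CPM in lung, and Cox6b2, of testis, had 6.63 and 4.81 CPM. In lung cells with a UMI of Cox4i2, Cox7a1 or Cox6b2, lung epithelium markers summed to 132615, 22950 and 65876 CPM. Cells without the gene had 3161, 3467 and 2530 CPM. Skin Cox4i2 came from 36 UMIs in 12 cells, with endothelium markers at 1161 CPM against 44.5 CPM. Of skin Cox7a1 and Cox6b2, 38 of 51 and 72 of 106 UMIs lay in cells with fewer than 2 UMIs of other cell types. In lung these were 9 of 31 and 37 of 113. Fibroblast markers summed to 7390 and 3879 CPM in skin cells with Cox7a1 and Cox6b2, against 1516 and 1542 CPM without. Myeloid markers summed to 1522 and 530 CPM, against 102 and 112 CPM. Endothelium markers differed less, at 31.5 and 50.1 CPM, against 47.7 and 47.5 CPM. Cox6a2, of heart and muscle, was not counted in skin, which allows up to 0.188 CPM, and had 2.39 CPM in lung. Its 56 lung UMIs came from 26 cells, in which lung epithelium markers summed to 229059 CPM, against 2019 CPM in cells without a Cox6a2 UMI. Cox7b2 and Cox8b were likewise not counted in skin, and had 0.0426 and 0.469 CPM in lung.

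Ndufa4l2, the hypoxia-induced relative of Ndufa4, was below the 20 CPM floor but showed the widest plain ratio of the nuclear members counted in both libraries. It had 17.8 CPM in skin, from 285 UMIs in 88 cells, and 0.128 CPM in lung, from 3 UMIs in 2 cells, a ratio of 139 with a counting interval of 47.2 to 680. A single skin cell held 23 of these UMIs. Fibroblast markers summed to 44059 CPM in the 88 skin cells and to 519 CPM in skin cells without the gene. Skin cells with fewer than 2 UMIs over the markers of other cell types held 68 of the 285 UMIs, in 38 cells.

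Complex V makes ATP, and 15 of its 16 members were compared, with a median of 0.13, 0 of them above the median of all compared genes. The catalytic F1 part had a median of 0.10 over 5 genes, and the stalk and membrane part 0.13 over 7. Atp5e, the small epsilon subunit of F1, had 503 CPM in skin and 715 CPM in lung. The peripheral stalk subunits Atp5f1 and Atp5j stood at the skin end, Atp5f1 with 295 CPM in skin and 231 CPM in lung, and Atp5j with 395 CPM in skin and 320 CPM in lung.

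The membrane ring of complex V is built from c subunits, and Atp5g1, Atp5g2 and Atp5g3 encode the same mature c protein behind different import sequences. Atp5g2 (chr15:102662864-102672352) had 321 CPM in skin (312 to 329) and 502 CPM in lung (493 to 512), a log2 ratio of -0.64. Atp5g1 had 258 CPM in skin and 235 CPM in lung, and Atp5g3 208 CPM in skin and 184 CPM in lung. As a sum the 3 genes took 0.0787% of UMIs in skin and 0.0921% in lung, and of the 3 only Atp5g2 was higher in lung on this scale. Under both scalings Atp5g2 passed 2-fold, at -1.01 and -1.03, and Atp5g1 and Atp5g3 turned to the lung side at -0.25 to -0.20.

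Among the 12 assembly factors, 7 were compared, with a median of 0.28. Sdhaf1 (ENSMUSG00000074211, chr7:30321406-30323895), which helps to insert iron-sulfur clusters into Sdhb, had 48.1 CPM in skin (44.7 to 51.6) and 87.5 CPM in lung (83.7 to 91.3), 1.82-fold higher in lung (1.67 to 1.98). Its client Sdhb ran the other way, as given above. Sdhaf2, which helps to attach the flavin to Sdha, was near equal on CPM, with 40.0 CPM in skin and 39.7 CPM in lung. Sdhaf4 had 39.8 CPM in skin and 29.5 CPM in lung, and the complex I factor Ndufaf3 had 40.1 CPM in skin and 30.8 CPM in lung. In 3 of the 11 alternatives Sdhaf1 passed 2-fold: both scalings and the cells with a Foxp3 UMI.

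**Figure D2:**
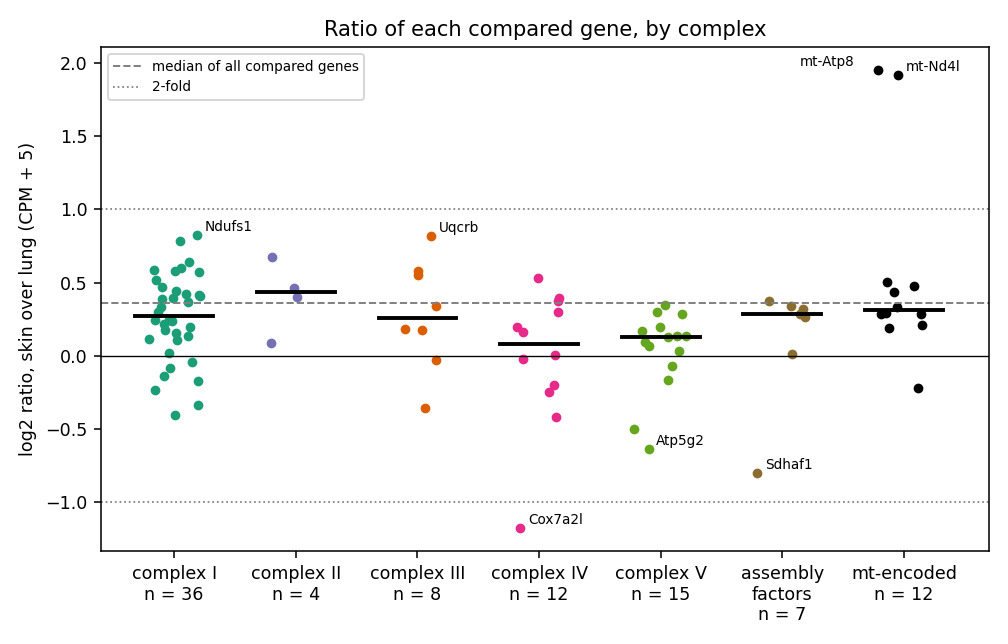
log2 ratio of skin over lung, on CPM + 5, for each compared gene (points), by complex, with the median of each group as a black bar, the median of all compared genes as a dashed line and 2-fold as dotted lines. Nuclear genes lie between -1.18 (Cox7a2l) and 0.83 (Ndufs1), and mt-Atp8 and mt-Nd4l lie near 2.

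Genes of mitochondrial DNA took a larger share of UMIs in skin. The 13 genes summed to 3.28% of UMIs in skin and 2.57% in lung, 1.28-fold (1.27 to 1.28). Among the 12 compared genes 11 had a ratio above 0, with a median of 0.31, and 5 lay above the median of all compared genes. Past 2-fold there were 2 on the skin side (15.0% of all compared genes) and 0 on the lung side (5.04% of all). On the reduced totals the sums were 4.21% in skin and 4.32% in lung. The median ratio of the same 12 genes there was -0.079, so that the direction rests on the scaling. CD3 cells with over 10% of their UMIs in these genes were 110 in skin (1.69%) and 51 in lung (0.607%). Without them, over cells of 200 or more genes, the median was 0.26.

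Of the complex IV subunits, which form the catalytic core, mt-Co1 had 5694 CPM in skin and 4680 CPM in lung. mt-Co2 had 2973 CPM in skin and 2196 CPM in lung, and mt-Co3 7353 CPM in skin and 5285 CPM in lung. Cytochrome b, the complex III subunit mt-Cytb, had 3217 CPM in skin and 2632 CPM in lung. In complex V, mt-Atp6, which forms the proton channel with the c ring, had 7746 CPM in skin and 6135 CPM in lung.

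The complex I subunits, which pump protons, varied more. mt-Nd1 had 2859 CPM in skin and 2348 CPM in lung, mt-Nd4 1460 and 1263 CPM, mt-Nd3 218 and 190 CPM, and mt-Nd5 255 and 179 CPM. mt-Nd2 was the 1 compared mitochondrial gene with the higher value in lung, with 550 CPM in skin (539 to 562) and 643 CPM in lung (632 to 653). mt-Nd6, which lies on the opposite strand from the others, was under the floor, with 15.9 CPM in skin and 6.86 CPM in lung.

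Both genes past 2-fold are short frames that overlap a longer neighbour on 1 shared transcript. mt-Atp8 had 280 CPM in skin (272 to 289) and 68.7 CPM in lung (65.4 to 72.2), 4.08-fold (3.85 to 4.32). mt-Nd4l had 206 CPM in skin (199 to 213) and 50.6 CPM in lung (47.7 to 53.5), 4.07-fold (3.81 to 4.35). Their partners mt-Atp6 and mt-Nd4 differed far less, with log2 ratios of 0.34 and 0.21. Both short genes passed 2-fold under all 11 alternatives, mt-Atp8 from 1.59 to 2.40 and mt-Nd4l from 1.57 to 2.003.

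The overlaps are shown in sequence. In GENCODE M21 on GRCm38, mt-Atp8 (chrM:7766-7969, plus strand, 204 bases) shares its last 43 bases, chrM:7927-7969, with the start of mt-Atp6, and mt-Nd4l shares its last 7 bases, chrM:10167-10173, with mt-Nd4. The whole of mt-Atp8 and the last 60 bases of mt-Nd4l (chrM:10114-10173) follow, with the shared bases in capitals.
mt-Atp8: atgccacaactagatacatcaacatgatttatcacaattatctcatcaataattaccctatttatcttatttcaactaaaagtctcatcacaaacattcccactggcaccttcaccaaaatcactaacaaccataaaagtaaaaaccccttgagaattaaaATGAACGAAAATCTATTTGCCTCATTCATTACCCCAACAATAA
mt-Nd4l: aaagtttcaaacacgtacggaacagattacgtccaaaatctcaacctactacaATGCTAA

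As a share of the pair, mt-Atp8 took 3.49% of the mt-Atp8 and mt-Atp6 UMIs in skin (3.39 to 3.60) and 1.11% in lung (1.06 to 1.16). mt-Nd4l took 12.3% of its pair with mt-Nd4 in skin (11.95 to 12.7) and 3.85% in lung (3.64 to 4.07). Barcodes without a CD3 UMI gave the same order. Treg markers still summed to 3561 CPM in skin and 776 CPM in lung in these barcodes, so they are not a set free of Tregs. There mt-Atp8 took 2.32% in skin and 1.27% in lung, and mt-Nd4l 10.3% in skin and 5.64% in lung. Within lung, the second deposited matrix of the same cells gave 0.766% for mt-Atp8 and 3.55% for mt-Nd4l. The gene annotations of the libraries differed, and the part of counting in these shares was not tested. Without the pair the mitochondrial median was 0.29.

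**Figure D3:**
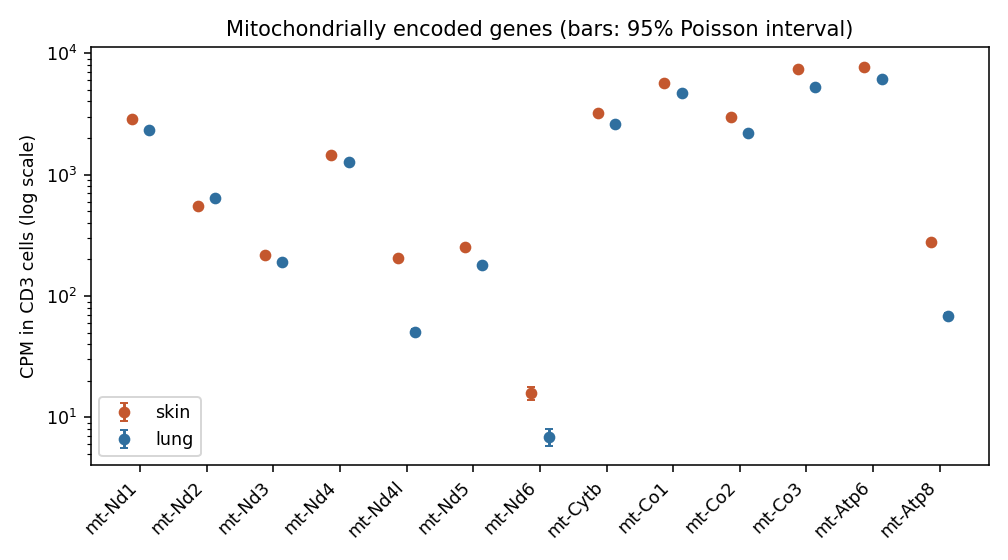
CPM in CD3 cells of skin (left point of each pair) and lung (right point) for the 13 genes of mitochondrial DNA, on a log scale, with 95% Poisson intervals that are smaller than most points. Skin is higher for all but mt-Nd2, and the gap is widest for mt-Nd4l and mt-Atp8.

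Per cell, the mitochondrial genes took a median of 3.01% of UMIs in skin (quartiles 2.40 to 3.90) and 2.45% in lung (2.06 to 2.93). The nuclear genes took 2.06% in skin (1.76 to 2.37) and 1.92% in lung (1.68 to 2.22). Thinning each cell to 1000 UMIs left out 117 lung cells and 0 skin cells, and the medians were 3.0% and 2.4% for mitochondrial genes and 2.0% and 1.9% for nuclear genes. The quartile ranges of the tissues overlap for both sets. Cells with more mitochondrial than nuclear UMIs of these genes made up 79.4% of skin and 74.7% of lung CD3 cells. The pooled ratio of mitochondrial to nuclear UMIs, which no library scaling changes, was 1.52 in skin and 1.26 in lung.

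The shares differed by depth in skin, where CD3 cells of each tissue were split into 5 equal bins by their UMIs. From the bin with the fewest UMIs to the bin with the most, the skin medians for mitochondrial genes were 3.67%, 3.08%, 2.90%, 2.83% and 2.80%, while the lung medians stayed between 2.40% and 2.57%. For nuclear genes the skin medians were 1.79%, 1.97%, 2.07%, 2.15% and 2.23%, and the lung medians lay between 1.88% and 2.10%. Skin cells of low depth thus had a higher mitochondrial and a lower nuclear share of their UMIs in the pathway, and the mitochondrial share in skin stood above that in lung bin by bin. At the CD3 threshold, cells with exactly 1 CD3 UMI had mitochondrial medians of 3.60% in skin (229 cells) and 2.54% in lung (442 cells). Barcodes with none had 4.24% in skin (91 barcodes) and 2.56% in lung (331 barcodes).

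**Figure D4:**
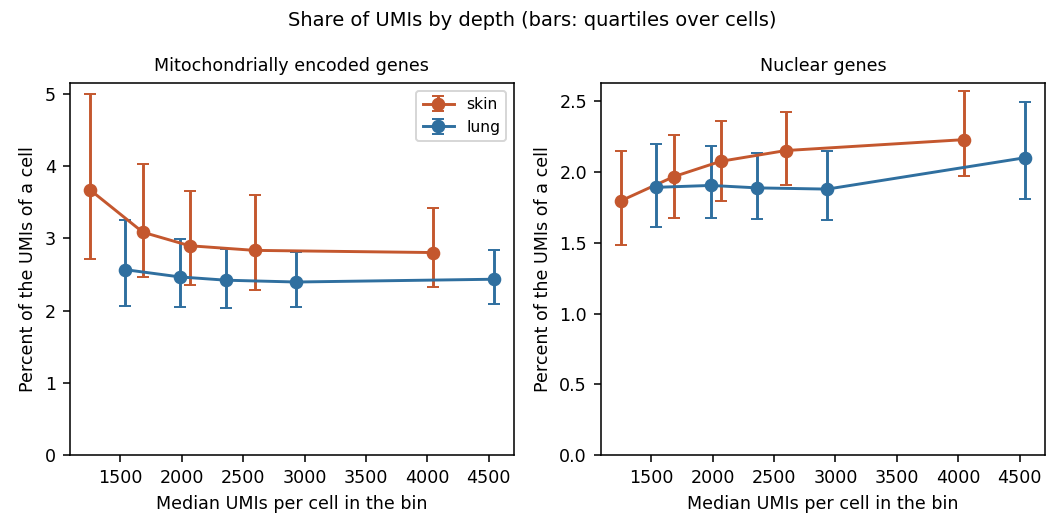
Percent of the UMIs of a cell in mitochondrial (left) and nuclear (right) oxidative phosphorylation genes against the median UMIs per cell in each depth bin, for skin and lung CD3 cells. Points are medians and bars are quartiles over cells; the skin curve for mitochondrial genes starts at 3.67% in the shallowest bin and ends at 2.80%, above the lung curve throughout.

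Dividing cells had a higher share of their UMIs in nuclear genes of the pathway in both tissues, but not in mitochondrial ones. Cells with at least 2 UMIs over 11 genes, mainly of mitosis (Mki67, Top2a and others), were called cycling, 225 in skin and 277 in lung. The list was not made to find cells that only copy their DNA, and these may stand among the other cells. In skin the nuclear members took 2.60% of UMIs in cycling cells and 2.12% in other cells, 1.23-fold (1.21 to 1.24). In lung they took 2.80% in cycling cells and 1.98% in other cells, 1.42-fold (1.40 to 1.43). Mitochondrial genes took 2.86% in cycling and 3.31% in other skin cells, and 2.52% in cycling and 2.57% in other lung cells. The ratio of mitochondrial to nuclear UMIs was 1.10 in cycling and 1.56 in other skin cells, and 0.901 in cycling and 1.30 in other lung cells.

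Cycling cells were deeper, with median UMIs of 4514 in cycling and 2030 in other skin cells, and 6584 in cycling and 2331 in other lung cells. After thinning to 1000 UMIs the nuclear medians per cell were still apart, 2.4% in cycling and 2.0% in other skin cells, and 2.7% in cycling and 1.9% in other lung cells. Ribosomal protein genes took 27.9% in cycling and 38.9% in other lung cells, and 18.3% in cycling and 18.7% in other skin cells. On the reduced totals the nuclear ratio of cycling to other cells was 1.21 in skin and 1.19 in lung, so that the tissues came closer.

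Gene by gene, 74 of 83 compared nuclear members had a ratio above 0 in skin, and 76 of 83 in lung. Above the median of all compared genes stood 72 in skin and 67 in lung. The members' median log2 ratio in skin was 0.28, against 0.04 for the 5790 genes compared there. In lung it was 0.56, against 0.21 for the 5274 genes compared there. Past 1.5-fold in skin there were 6 of 83 on the side of cycling cells (9.88% of all compared genes) and 0 on the other (6.67% of all). Past 1.5-fold in lung there were 36 of 83 on the side of cycling cells (24.3% of all) and 2 on the other, Cox7a2l and Sdhaf1 (9.23% of all). By summed share in skin, complex V was 1.31-fold higher in cycling cells (1.28 to 1.34), complex II 1.25-fold (1.15 to 1.35) and complex IV 1.22-fold (1.20 to 1.25). In lung complex II was 1.78-fold higher in cycling cells (1.67 to 1.90), complex V 1.495-fold (1.47 to 1.52) and complex IV 1.44-fold (1.42 to 1.46). The assembly factors as a sum were level, at 1.00-fold in both tissues. Their median log2 ratio over 8 compared genes was 0.04 in skin and 0.25 in lung, near the 0.04 and 0.21 of all compared genes.

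The genes named next were chosen after their values were seen. The membrane anchor Sdhd had 87.2 CPM in cycling and 66.5 CPM in other skin cells, and 151 CPM in cycling and 55.9 CPM in other lung cells, 2.70-fold in lung (2.36 to 3.08). Cox5a, a nuclear subunit of complex IV, had 428 CPM in cycling and 274 CPM in other skin cells, and 451 CPM in cycling and 198 CPM in other lung cells. Ndufs8, a core iron-sulfur subunit of complex I, had 133 CPM in cycling and 86.5 CPM in other skin cells, and 204 CPM in cycling and 90.3 CPM in other lung cells. All 3 were thus higher in cycling cells of both tissues.

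The 3 lowest of the compared nuclear members, the same in both tissues, were also lower in skin than in lung. Cox7a2l had 316 CPM in cycling and 417 CPM in other skin cells, and 614 CPM in cycling and 965 CPM in other lung cells, a ratio of 0.636 in lung (0.599 to 0.675). Sdhaf1 had 35.1 CPM in cycling and 49.1 CPM in other skin cells, and 43.6 CPM in cycling and 91.3 CPM in other lung cells, a ratio of 0.478 in lung (0.378 to 0.596). Ndufa6 had 237 CPM in cycling and 300 CPM in other skin cells, and 287 CPM in cycling and 402 CPM in other lung cells. For all 3 the counting intervals of the ratio lay below 1 in both tissues. The next lowest compared nuclear members were Sdhaf4 and Ndufaf4 in lung, and Ndufaf3 and Sdhaf4 in skin. These were higher in skin than in lung on CPM.

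**Figure D5:**
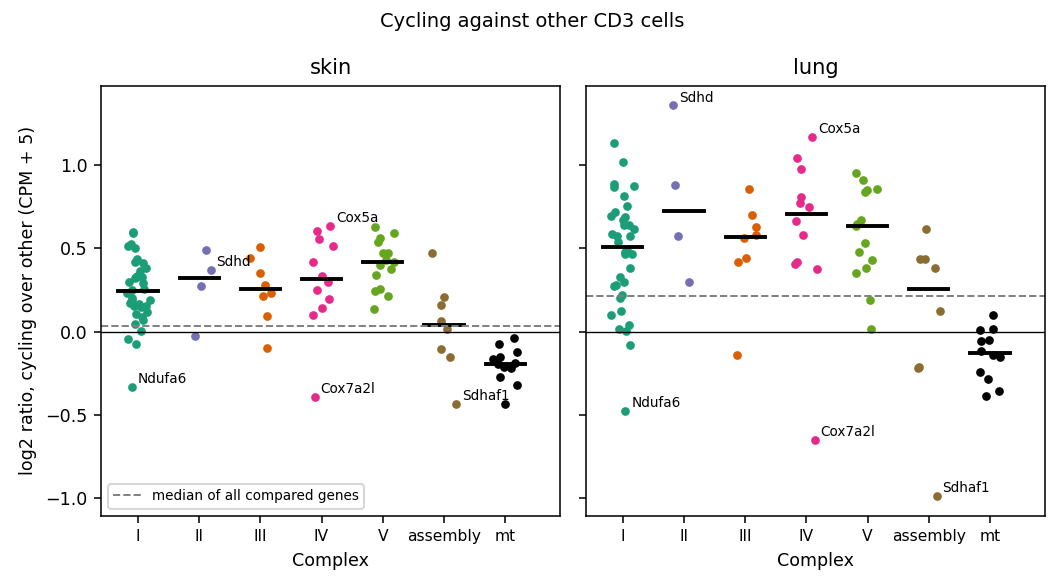
log2 ratio of cycling over other CD3 cells, on CPM + 5, for each compared member by complex, in skin (left) and lung (right), with group medians as black bars and the median of all compared genes as a dashed line. In both tissues the medians of the 5 complexes lie above 0 and that of the mitochondrial genes below it, and Cox7a2l, Sdhaf1 and Ndufa6 lie at the low end.

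Other marker genes were used to split the cells in the same way. In lung, cells with an S100a4 UMI, a gene of antigen-experienced T cells, had a nuclear share of 2.37%, against 1.95% in the other lung cells. They also had a lower share of ribosomal protein genes, 30.3% against 40.1%, and on the reduced totals the ratio was 1.04. In skin, cells with S100a4 had a mitochondrial share of 3.17%, against 4.08% in cells without it, which were shallower (median 2145 UMIs with it and 1638 without it). Lung cells with a UMI of Ccr7, the receptor that guides T cells to lymph nodes, had a nuclear share of 1.997%, against 2.11% without, and the ratio turned to 1.01 on the reduced totals. In skin the order was the other way, 2.26% with Ccr7 and 2.14% without, a ratio of 1.06 that became 1.12 on the reduced totals. Cells with a Foxp3 UMI, 369 in skin and 305 in lung, had nuclear shares 1.02 and 0.998 times those of the other cells of their tissue.

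The start regions of the nuclear members were set beside these values. Windows of 300 bases, from 250 before to 50 after the transcription start, came from RefSeq on GRCm38.p6 for 78 of the 96 nuclear members, 83 windows in all. Motifs of 4 factors known to act on respiratory genes were searched on both strands, with overlaps between motifs allowed. The NRF1 motif GCGCA-N-GCGC stood in 22 windows (26.5%), against 4.603% of all 32851 windows. The ETS motif CCGGAAG, bound by GABP, stood in 21 windows (25.3%), against 8.86% of all. The YY1 motif AAGATGGCG was in 8 windows (9.64% against 1.40%), and the ERR motif TCAAGGTCA in 2 (2.41% against 0.423%). At least 1 of the 4 was in 51.8% of the members' windows, against 13.9% of all. The 32851 windows were not limited to genes counted in these cells. Whether the higher shares are particular to this pathway was not tested.

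The 100 bases before the start are shown for the c ring genes, of which Atp5g2 stood apart, with motif matches in capitals on the strand of the gene. They are chr11:96075632-96075731 for Atp5g1, chr15:102671048-102671147 for Atp5g2 and chr2:73911327-73911426 for Atp5g3, all minus strand. The Atp5g2 stretch holds an NRF1 match, the Atp5g3 stretch an ERR match read on the other strand, and the Atp5g1 stretch none of the 4. The 300-base window of Atp5g3 also holds an NRF1 match outside the stretch, and that of Atp5g1 holds none of the 4.
Atp5g1: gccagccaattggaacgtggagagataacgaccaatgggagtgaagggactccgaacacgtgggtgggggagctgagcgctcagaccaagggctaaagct
Atp5g2: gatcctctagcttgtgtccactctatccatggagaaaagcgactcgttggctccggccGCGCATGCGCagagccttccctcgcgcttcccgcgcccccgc
Atp5g3: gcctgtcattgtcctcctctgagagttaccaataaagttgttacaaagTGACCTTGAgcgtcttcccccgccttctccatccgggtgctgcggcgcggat

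The same stretch follows for genes that were lower in cycling cells (Cox7a2l, chr17:83514334-83514433, minus strand; Sdhaf1, chr7:30322376-30322475, minus strand; Ndufa6, chr15:82354292-82354391, minus strand) and for genes that were higher there (Sdhd, chr9:50603850-50603949, minus strand; Cox5a, chr9:57521132-57521231, plus strand). Of these 5 stretches only that of Sdhd holds matches, to NRF1 and to ETS on the other strand, while the 300-base windows of Ndufa6 and Sdhaf1 hold an NRF1 and an ETS match outside the stretch, and that of Sdhd an ERR match. A match is a string of letters and was not tested for binding.
Cox7a2l: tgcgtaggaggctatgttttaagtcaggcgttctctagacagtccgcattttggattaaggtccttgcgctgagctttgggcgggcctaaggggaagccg
Sdhaf1: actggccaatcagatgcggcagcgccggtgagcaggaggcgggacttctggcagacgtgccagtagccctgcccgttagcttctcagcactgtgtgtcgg
Ndufa6: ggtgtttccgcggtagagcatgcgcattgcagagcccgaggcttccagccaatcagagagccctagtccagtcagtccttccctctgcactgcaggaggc
Sdhd: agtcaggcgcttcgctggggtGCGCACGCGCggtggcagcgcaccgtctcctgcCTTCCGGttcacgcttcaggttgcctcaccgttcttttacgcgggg
Cox5a: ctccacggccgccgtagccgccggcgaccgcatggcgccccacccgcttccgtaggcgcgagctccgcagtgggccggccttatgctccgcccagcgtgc

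Genes around the pathway were read from lists, with 2-fold and 1.5-fold counts on the same scale. A first list joined the electron carriers between the complexes, Cyc1 of complex III and the enzymes of ubiquinone synthesis. Of its 18 genes 8 were compared, with a median of 0.42. Past 2-fold there were 2 on the skin side (15.0% of all compared genes) and 0 on the lung side (5.04% of all). Coq10b, which binds ubiquinone, had 225 CPM in skin and 96.7 CPM in lung, and Etfb, of the electron transfer flavoprotein, had 161 CPM in skin and 72.6 CPM in lung. Coq5 and Coq2, enzymes of ubiquinone synthesis, had 25.2 CPM in skin and 31.1 CPM in lung, and 22.5 CPM in skin and 19.0 CPM in lung. Both Coq10b and Etfb stayed higher in skin under both scalings.

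Assembly factors outside the symbol rule had a median of 0.08 over 23 of 39 genes, with 6 at least 1.5-fold higher in skin (33.8% of all compared genes) and 0 in lung (9.02% of all). Of the 6, 1 was past 2-fold with 5 CPM added (15.0% of all), while the plain ratio of Atpif1 was 2.01. Timmdc1, of complex I assembly, had 22.01 CPM in skin and 6.73 CPM in lung, and Atpif1, the inhibitor of ATP synthase running in reverse, had 296 CPM in skin and 147 CPM in lung. Uqcc3, of complex III assembly, had 86.3 CPM in skin and 129 CPM in lung, and Cmc1, of complex IV assembly, 48.0 CPM in skin and 66.6 CPM in lung.

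Genes of mitochondrial transcription and its nuclear regulators had a median of 0.19 over 11 of 22, with 1 past 2-fold in skin (15.0% of all compared genes) and 0 in lung (5.04% of all). Tfam, which packages and transcribes mitochondrial DNA, had 23.0 CPM in skin and 33.9 CPM in lung, and the mitochondrial DNA polymerase Polg 32.6 CPM in skin and 44.0 CPM in lung. Gabpb1, a subunit of GABP, had 71.5 CPM in skin and 32.8 CPM in lung, and Ssbp1, which binds single-stranded mitochondrial DNA, 64.0 CPM in skin and 40.0 CPM in lung.

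Enzymes of the tricarboxylic acid cycle and of pyruvate dehydrogenase were all compared, with a median of 0.37 over 16 genes. With 5 CPM added, 0 were past 2-fold either way, while the plain ratios of Dlat and Sucla2 were 2.28 and 2.11. Past 1.5-fold there were 4 in skin (33.8% of all compared genes) and 2 in lung (9.02% of all). Dlat, a subunit of pyruvate dehydrogenase, had 38.4 CPM in skin and 16.8 CPM in lung, while Pdhb, of the same complex, had 58.0 CPM in skin and 90.5 CPM in lung. Sucla2 had 62.5 CPM in skin and 29.7 CPM in lung, and Dlst, of oxoglutarate dehydrogenase, 23.9 CPM in skin and 44.3 CPM in lung. Subunits of one enzyme complex thus stood on opposite sides.

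Of the carriers of the inner and outer membrane 10 of 16 were compared, with a median of 0.40. Past 2-fold there were 2 in skin (15.0% of all compared genes) and 0 in lung (5.04% of all). Slc25a4, an exchanger of ADP and ATP, had 265 CPM in skin and 118 CPM in lung, and its relative Slc25a5 had 647 CPM in skin and 577 CPM in lung. Mpc1 and Mpc2 together form the mitochondrial pyruvate carrier. Mpc1 had 164 CPM in skin and 78.8 CPM in lung, and Mpc2 had 104 CPM in skin and 87.6 CPM in lung. Under both scalings Slc25a5 and Mpc2 turned to the lung side, and Slc25a4 and Mpc1 did not.

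The mitochondrial ribosome, which translates the 13 mitochondrial genes, had a median of 0.03 over 71 of 78 genes, a difference of -0.33 from all compared genes, and medians of -0.30 and -0.32 under the scalings. Past 2-fold there were 0 in skin (15.0% of all) and 2 in lung (5.04% of all). Mrpl30 had 72.5 CPM in skin and 192 CPM in lung, and Mrps6 28.7 CPM in skin and 74.0 CPM in lung. Mrps25 had 39.1 CPM in skin and 24.0 CPM in lung, and Mrps28 had 41.1 and 26.7 CPM. Cytosolic ribosomal protein genes differed far more, with a median of -1.08 over 80 genes, 1 past 2-fold in skin (Rps27rt, 2300 CPM against 1047 CPM in lung) and 49 in lung. The early response list had a median of 1.21 over 20 genes, 10 past 2-fold in skin and 3 in lung. With 5 CPM added, the ratio was highest for Nr4a1 and Fosb, with 1475 and 359 CPM in skin, against 153 and 48.9 CPM in lung. Hspa1a and Hspa1b were lowest, with 133 and 13.7 CPM in skin, against 354 and 62.2 CPM in lung.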

How the data were processed

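Mouse skin and lung T cells (1 library each) were read from the deposited UMI count matrices, raw counts per gene and barcode in which the authors had already called cells. The submitters' processing notes name Cell Ranger, with no version, and mm10. Software version 3.0.2 stands in the lung matrices, per the file headers. The skin list holds 27998 genes and the lung list 31053, and the 27514 shared Ensembl IDs were used under the lung symbols. All 8626 barcodes of a second lung matrix occur in the first, which was used alone.

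Counts of CD3 cells were summed per library and divided by the total over shared genes (CPM). Log2 ratios have 5 CPM added on each side, which makes differences of low genes look smaller, and were taken for genes that reached 20 CPM in at least 1 library. Poisson, binomial and Clopper-Pearson intervals are exact at 95% and cover counting error only, and the limit for a count of 0 is 3 counts, 0.188 CPM in skin and 0.128 CPM in lung. No barcode was removed as a doublet, and an alternative left out the 6% of cells with the most UMIs. Other alternatives changed the scaling, the cells, the depth, the floor and the added CPM. The members, gene lists and markers were chosen with earlier results of these data known. Genes were named when they were mitochondrial, at least 2-fold apart, the 2 highest or 2 lowest of a complex or list, or a tissue isoform, c ring or complex II gene. Cycling genes and Uqcrfs1 were named after their values were seen. Positions came from GENCODE M21 for all 109 members, and 1 member, Ndufaf8, has another symbol in the skin list. Python 3.11.15, numpy 2.4.6, pandas 2.3.3, scipy 1.17.1 and matplotlib 3.10.9 were used, and the summing and ratio steps were tested on simulated data.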

Additional observations from a re-analysis of the deposited data

How the results depend on the processing

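No paired analysis was possible because each tissue has 1 library. The scaling decided the direction of both medians, and the cause was not tested. In this section the 20 CPM floor was applied again under each scaling, so the genes compared changed. They were 5613 with median-of-ratios factors and 6764 on reduced totals, and values can differ from those above. The nuclear median of 0.21 became -0.17 with median-of-ratios factors and -0.15 on reduced totals (no mitochondrial or ribosomal protein genes), and the mitochondrial median of 0.31 became -0.065 and -0.056. Relative to the median of all compared genes the nuclear median stayed lower by a like amount, -0.16 and -0.12, against -0.15 on CPM. With no floor, which adds many genes near 0 CPM, the median of all genes was 0.05 and that difference turned to 0.16. The shares of all compared genes past 2-fold, 15.0% in skin and 5.04% in lung on CPM, became 8.89% and 8.61% with median-of-ratios factors, and 8.74% and 9.02% on the reduced totals. The nuclear median was 0.24 without the 6% of cells with most UMIs, 0.27 in cells with fewer than 2 UMIs of other cell types (5585 skin and 4932 lung cells), 0.25 in cells with a Foxp3 UMI, 0.22 with the second lung matrix, 0.23 with a floor of 5 CPM and 0.22 with none. The mitochondrial median was, in the same order, 0.35, 0.33, 0.30, 0.28, 0.34 and 0.34. It was 0.30 with at least 2 Cd3 UMIs, 0.33 over all barcodes, 0.26 in cells of 200 or more genes whose mitochondrial UMIs stayed within 10%, 0.40 after thinning, and 0.29 without mt-Nd4l and mt-Atp8, a setting chosen after seeing the data. Of nuclear genes, 0 were 2-fold higher in skin on CPM, against 1 on the reduced totals, with a floor of 5 CPM and with none (Ndufa4l2), and 2 in cells with a Foxp3 UMI (Ndufb7 and Ndufs1). In lung 1 was, against 3 under both scalings (Cox7a2l, Sdhaf1 and Atp5g2) and 2 in cells with a Foxp3 UMI (Cox7a2l and Sdhaf1). In cells with a Foxp3 UMI, 16.1% of all compared genes were past 2-fold in skin and 5.73% in lung. These shares were 12.1% and 4.43% with a floor of 5 CPM, and 6.24% and 2.29% with none. Depth limits the tissue isoforms, of which single libraries hold between 0 and 113 UMIs.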
